A study of Mus musculus with 11 samples.

Results

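The comparison described here is that of paclitaxel (PTX) with control in the dorsal root ganglia (DRGs) of Gpr37l1 knockout (KO) mice. It rests on 5 of the 11 poly(A) RNA-Seq libraries of the study: 2 libraries of KO mice killed 4 weeks after PTX and 3 of KO mice under the control treatment. Its members were the 15082 genes, of 36670 in the table, with a mean of at least 0.5 FPKM (fragments scaled to transcript length and library size) over these 5 libraries. KO PTX replicate 2 and KO control replicates 1 and 2 are labelled male, and replicate 3 of either group is labelled female. All 5 carry the Gpr37L1 KO genotype, which the study obtained as the B6;129S5-Gpr37l1tm1Lex line kept with littermates on a C57BL/6 background. The wild-type (WT) libraries, 3 of control and 3 of PTX mice, served to estimate the spread and to test whether the difference in KO mice was larger or smaller than that in WT mice. The mice were adults. The dose behind these libraries, what the control animals received and the number of ganglia or animals in a library are not given in the sources used here, so p-values measure only the spread between libraries.

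PTX is a chemotherapy drug that stabilizes microtubules, and a painful neuropathy of the long sensory axons is its best-known side effect. The cell bodies of these axons lie in the DRG, each wrapped by satellite glial cells (SGCs), which take up glutamate and buffer potassium. GPR37L1 is a G protein–coupled receptor of SGCs. In the KO mice the ganglion therefore meets the drug without this glial receptor, and the question the design puts is what the drug leaves behind in the transcriptome under that condition.

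Gpr37l1 itself was measured at 0.21, 0.25 and 0.29 FPKM under control treatment of KO mice and at 0.6 and 1.15 FPKM once PTX had been given, against 14.56 to 35.7 FPKM in the 6 WT libraries. All 5 KO libraries thus lay far below every WT library, as their labels require, although the 2 KO PTX libraries lay above all 3 KO controls. Its mean over the KO libraries was 0.5 FPKM, so it was tested only because of its values after PTX. The difference between the KO groups was 1.77 ± 0.39 on the log2 scale (SE). Its unadjusted p was 0.0011 and its adjusted p 0.999 in edgeR. DESeq2, the alternative test given below, gave Gpr37l1 an adjusted p of 0.034. The related receptor Gpr37 was at 2.31 to 2.59 FPKM in KO controls and 2.61 to 2.83 after PTX. Psap, which encodes prosaposin, a proposed ligand precursor of both receptors, was at 545 to 581 FPKM in controls and 558 to 561 after PTX, so these groups overlapped. Kcnj10, the inwardly rectifying potassium channel Kir4.1 of SGCs, overlapped as well, at 15.28 to 20.03 FPKM in controls and 18.0 to 18.35 after PTX. Kcnj3, a G protein–gated potassium channel subunit, was at 5.41 to 6.38 FPKM in controls and 6.54 to 6.78 after PTX, without overlap but with an unadjusted p of 0.25.

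The libraries differed in size, which bears on how several of the results below can be read. The KO PTX libraries held 54914928 and 56747335 counts and the KO controls 75645085 to 78700213. Among the WT libraries, control replicate 1 and PTX replicate 3 were also small, so that 4 libraries held 52735648 to 56747335 counts and the other 7 held 68821582 to 80348732. These 4 libraries shared a set of transcripts that the other 7 lacked or held at low levels. In 13 genes all 4 exceeded all 7 by more than 0.7 on the log2(FPKM + 0.1) scale, while no gene showed the opposite. Pou5f1 and Dppa5a, genes of pluripotent cells, were among them. Pou5f1 was at 2.75 and 1.67 FPKM in KO PTX, 3.48 in WT control replicate 1 and 2.83 in WT PTX replicate 3, against at most 0.04 in the other 7 libraries. Dppa5a was at 8.26 and 4.89 FPKM in KO PTX, 12.67 and 7.71 in the 2 small WT libraries and 0.44 to 0.75 elsewhere. Il10, an anti-inflammatory cytokine, was at 2.22 and 1.73 FPKM in KO PTX and at 2.22 and 3.13 in the 2 small WT libraries, and did not exceed 0.03 in the rest. The remaining members of the set were Slc1a2, Mobp, Gad1, Slc12a5, Hpcal4, Camkv, Cck, Vxn, Ttr and Ftl2-ps, most of them genes of central neurons or glia, or, for Ttr, of the choroid plexus. In WT mice 1 control and 1 PTX library carried them, so there they did not follow the drug. In KO mice the drug and the small libraries coincided, and the 2 cannot be told apart there. A fit with library size as a 2-level term, estimated from the WT libraries and added after the data were seen, is therefore given beside many of the results below. In that fit 594 of the 15082 genes tested were at an unadjusted p under 0.05 in edgeR, both directions together. The term shifts the KO difference by whatever set the 2 small WT libraries apart, even where the KO libraries lacked it. Plekhm3, below, is such a case.

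**Figure D1:**
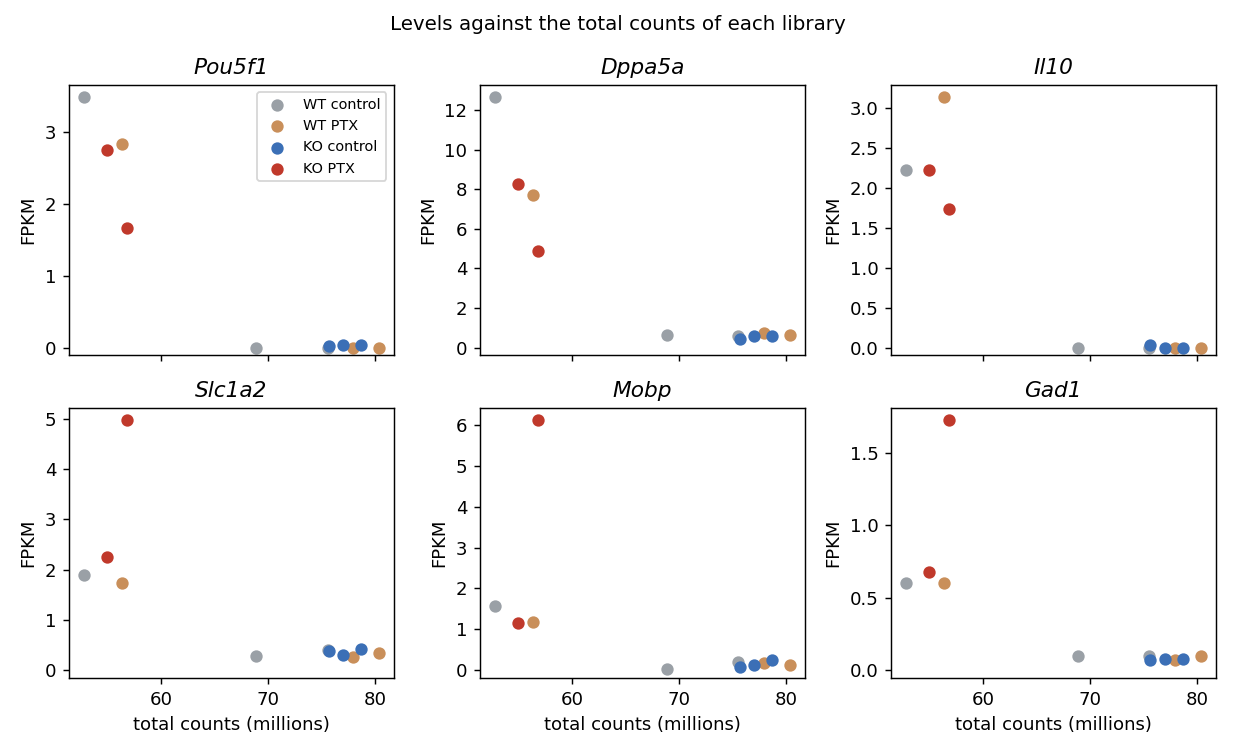
FPKM of 6 genes (vertical axis) against the total counts of each of the 11 libraries (horizontal axis), coloured by group. The 4 libraries with 52735648 to 56747335 counts, among them both KO PTX libraries, lie above the other 7 in all 6 genes, and 1 WT control and 1 WT PTX library lie with them.

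In KO mice the main test called 1 gene, Pde10a, which was lower after PTX. It was the only one of the 15082 genes past an adjusted p of 0.05 in edgeR (0.00663% of the genes tested). Pde10a (ENSMUSG00000023868) encodes phosphodiesterase 10A, an enzyme that breaks down both cyclic AMP and cyclic GMP and is best known from the medium spiny neurons of the striatum. Its level was 2.36, 2.22 and 2.44 FPKM among KO controls and 0.22 FPKM in either KO PTX library, which came to 2487, 2428 and 2604 counts against 169 and 174. The controls were tightly grouped (2.34 ± 0.11 FPKM, SD, n = 3), and the PTX libraries lay far below them without overlap. The fall was by 3.44 ± 0.15 on the log2 scale (SE), or 10.8-fold, with an adjusted p of 5.4e-06 in edgeR. The next gene in the ranking had an adjusted p of 0.84.

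WT mice did not show this fall. Their Pde10a was at 1.6, 1.91 and 2.4 FPKM in controls and 2.52, 2.25 and 2.91 FPKM after PTX, a difference of 0.38 ± 0.11 upwards on the log2 scale (SE) with an adjusted p of 0.25 in edgeR. The difference between the 2 genotypes was tested directly: the effect in KO mice minus that in WT mice was -3.82 ± 0.18 on the log2 scale (SE), with an adjusted p of 1.4e-05 in edgeR. Pde10a was again the only gene past the threshold (0.00663% of the genes tested), with 960 genes at an unadjusted p under 0.05. The small WT libraries, control replicate 1 and PTX replicate 3, were at 1.6 and 2.91 FPKM, the lowest and the highest WT values. In KO mice the drug and the small libraries coincided, and the 2 cannot be told apart there. With library size as a term, estimated from the WT libraries, Pde10a fell by 3.35 on the log2 scale, with an adjusted p of 0.00013 in edgeR.

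The position of the gene and its surroundings were examined next. In the table Pde10a spans bases 8525372 to 8986645 of chromosome 17 (mm10), on the plus strand, and GENCODE M21 lists 14 transcripts for it with several starts. RefSeq (GRCm38.p6) gives promoter windows for 2 starts, at bases 8801745 and 8849985, of which the second is also a GENCODE start. Both are shown because the fall is that of the whole gene and the counts do not say which start was in use. Only bases ahead of any exon annotated on this strand are printed. Capitals mark every match, on either strand, to the GC box GGGCGG, the CCAAT box CCAAT, the TATA box TATAAA or the cyclic AMP response element half-site TGACG.
chr17:8801495-8801692: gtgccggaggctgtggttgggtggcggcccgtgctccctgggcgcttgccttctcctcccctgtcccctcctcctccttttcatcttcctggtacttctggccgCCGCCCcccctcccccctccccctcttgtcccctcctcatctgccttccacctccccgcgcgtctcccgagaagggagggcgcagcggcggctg
chr17:8849735-8849984: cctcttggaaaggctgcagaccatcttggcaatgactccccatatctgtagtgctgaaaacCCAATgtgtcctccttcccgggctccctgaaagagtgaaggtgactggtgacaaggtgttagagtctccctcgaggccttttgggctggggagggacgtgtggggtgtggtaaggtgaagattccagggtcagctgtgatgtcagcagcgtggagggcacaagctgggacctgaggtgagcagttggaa
The first window, of 198 bases, held 70.7% C or G and 1 GC box on the minus strand. The second, of 250 bases, held 56.0% C or G and 1 CCAAT box. Of all 32851 RefSeq promoter windows of 250 bases, 32.7% held the GC box letters and 33.8% the CCAAT box letters. TATAAA occurred in 12.4% of them and TGACG in 17.8%, and neither occurred in the Pde10a windows.

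The neighbours of Pde10a did not show a drop of this size. Upstream, Sft2d1 was at 5.67 to 6.47 FPKM in KO controls and 5.02 to 6.74 after PTX, and 4930506C21Rik at 0.71 to 0.76 and 0.56 to 0.64. Downstream, 1700010I14Rik was at 0.3 to 0.72 FPKM in controls and 0.43 to 0.55 after PTX. Farther downstream, Qk, which encodes an RNA-binding protein of myelinating glia, was at 13.53 to 14.72 FPKM in controls and 11.75 to 12.69 after PTX, below all controls. Gm15425, which overlaps Pde10a on the minus strand, was listed at 0 in all 5 KO libraries.

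Losses of genes in single libraries also occurred, both in the KO libraries of the comparison and in WT libraries. They stand beside the fall of Pde10a. In each library but KO PTX replicate 2, between 1 and 10 genes that had at least 1 FPKM in every other library were over 4-fold below all of them. Map2, a microtubule-associated protein of neuronal dendrites, was at 1.02 FPKM in KO control replicate 3 and at 6.54 to 11.54 in the other 10 libraries. Six4, a homeobox factor of sensory neurons, was at 0.19 FPKM in KO PTX replicate 3 and at 2.68 to 4.67 elsewhere. Zfp146, a zinc finger protein, was at 1.24 FPKM in the same library and at 6.12 to 8.61 elsewhere. A pair of libraries from different groups shared one such loss: Plekhm3 was at 0.86 FPKM in WT control replicate 1 and 1.06 in WT PTX replicate 3, against 8.49 to 9.61 in the other 9. By the same measure, Pde10a was the only gene lost in both KO PTX libraries relative to all 9 others. These genes were chosen after their values were seen, and whether the loss of Pde10a is of the same kind was not tested.

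**Figure D2:**
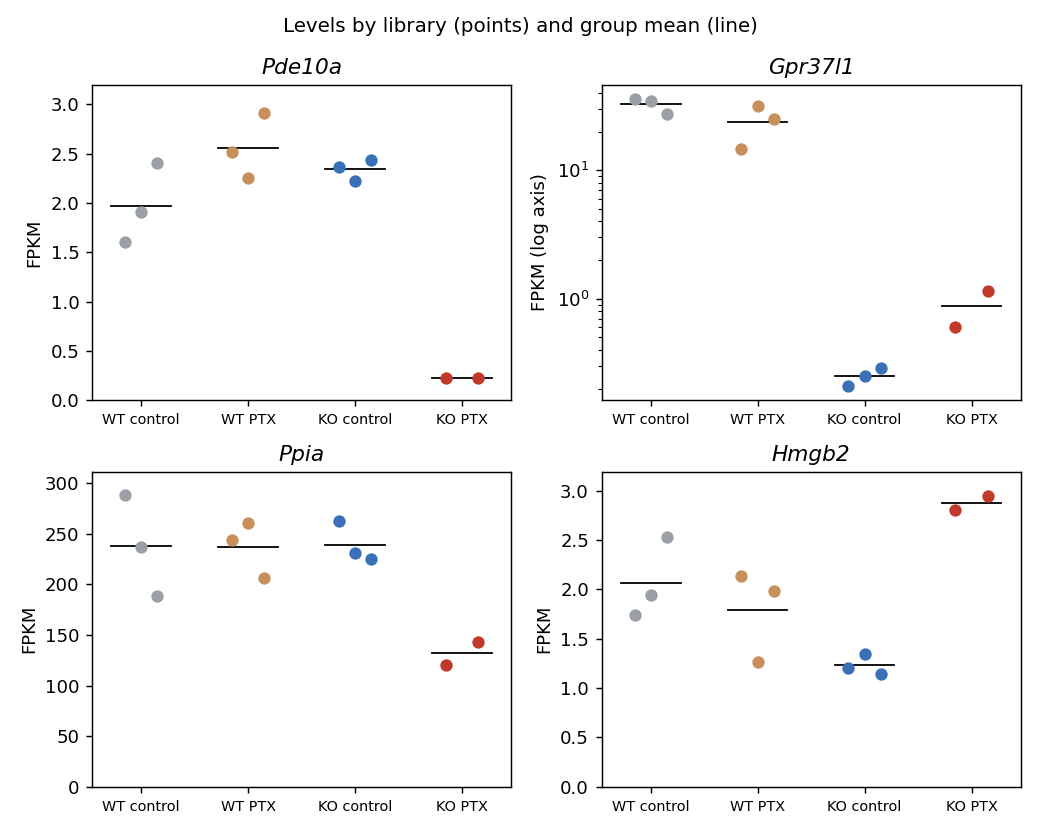
FPKM of 4 genes in the 11 libraries (points), by group, with the group mean (line); the axis of Gpr37l1 is logarithmic. Pde10a sits at 0.22 FPKM in both KO PTX libraries and at 1.6 or more in the other 9. Ppia is lower and Hmgb2 higher in KO PTX than in the KO controls.

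No other enzyme that degrades cyclic nucleotides had lower values at an unadjusted p under 0.05. Of 24 listed phosphodiesterase genes, 17 were tested. Of the genes tested, 179 had a KO control mean below 0.5 FPKM and passed the filter only through their PTX values, and 285 passed only through their control values. Such genes differ by the way they were chosen, and those that enter a count at an unadjusted p under 0.05 are named as such. Pde10a, with a PTX mean below the limit, was 1 of 17 at an unadjusted p under 0.05 with lower values (2.57% of all genes tested), and Pde1b was 1 of 17 with higher values (1.8% of all genes tested). The median difference over the 17 was 0.04 on the log2 scale, against -0.0090 over all genes. Pde1b, a calcium- and calmodulin-dependent enzyme, was at 1.76, 1.14 and 1.94 FPKM in controls and at 2.28 and 3.33 after PTX. The PTX libraries lay above all controls, by 0.76 ± 0.21 on the log2 scale (SE), with an unadjusted p of 0.0045 and an adjusted p of 0.999 in edgeR. With library size as a term the difference of Pde1b was 0.58, with an unadjusted p of 0.076. Pde2a, a dual-substrate enzyme like Pde10a, was at 19.39 to 20.57 FPKM in controls and 21.35 to 21.85 after PTX, a difference of 0.11. The cyclic AMP-specific Pde4a, Pde4b, Pde4c and Pde4d overlapped between the groups, with differences of 0.23, 0.11, 0.03 and 0.04. Pde8a, another cyclic AMP-specific enzyme, was at 3.76 to 4.11 FPKM in controls and 3.1 to 3.85 after PTX, with a difference of -0.23 and an unadjusted p of 0.099.

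**Figure D3:**
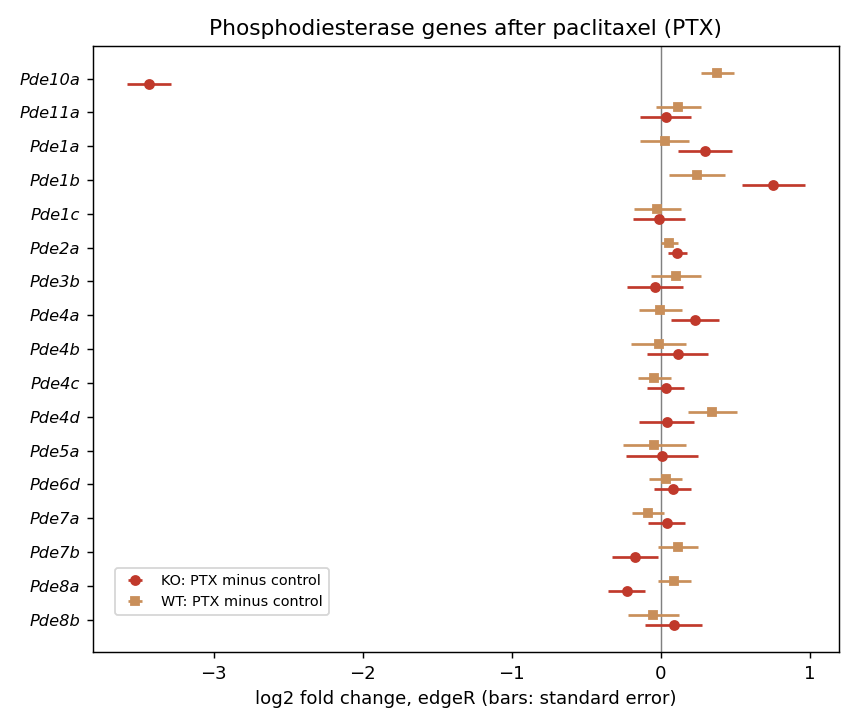
Log2 fold change of PTX against control (horizontal axis) for the 17 phosphodiesterase genes tested, in KO (circles) and WT (squares), with edgeR standard errors as bars. Pde10a stands at -3.44 in KO and 0.38 in WT, and Pde1b, the highest in KO, at 0.76.

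The enzymes that make cyclic nucleotides and the proteins that read them showed little. Of adenylyl and guanylyl cyclases, kinase subunits and other effectors, 26 were tested. Gucy1b1 was 1 of 26 higher at an unadjusted p under 0.05 (1.8% of all genes tested) and no gene was lower (2.57%). The median difference was 0.0089 on the log2 scale. Gucy1b1, a subunit of the nitric oxide receptor, was at 1.3 to 1.45 FPKM in controls and 1.61 and 2.16 after PTX. Adcy8, a calcium-stimulated adenylyl cyclase, was at 1.19 to 1.36 FPKM in controls and 1.33 and 1.8 after PTX, so its groups overlapped.

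DESeq2, run as an alternative on the same 11 libraries, called 28 genes (0.186% of those tested), 7 higher and 21 lower after PTX, and Pde10a was among them. Given library size as a term it called 8 genes, of which only Pde10a had been among the 28. Among the 7 higher were Gpr37l1 and Lamp5, both with a KO control mean below 0.5 FPKM. Several of the 21 lower genes encode matrix proteins or their helpers, which is a reading of the calls made after they were seen, without a test. Serpinh1, the collagen chaperone HSP47, was at 31.67, 34.46 and 34.42 FPKM in controls and 18.3 and 24.96 after PTX. Nid1, a basement membrane linker, was at 16.67, 14.28 and 15.34 and at 9.99 and 12.0. Ogn, a small leucine-rich proteoglycan, was at 65.69, 65.42 and 61.63 and at 36.91 and 49.02. Mgp, an inhibitor of tissue calcification, was at 34.3, 18.2 and 34.98 and at 14.23 and 13.64. Of these 4 genes both PTX libraries lay below all controls. Eln, elastin, was at 2.55, 1.47 and 2.6 and at 0.58 and 1.54, so its groups overlapped. With library size as a term the difference of Nid1 went from -0.50 to -0.26 and that of Ogn from -0.59 to -0.27 on the log2 scale. Fndc3b, a membrane protein with fibronectin type III domains, was at 1.85 to 2.14 FPKM in controls and 1.36 and 1.2 after PTX.

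The list of 25 fibroblast and matrix genes, all of them tested, also leaned lower. It was measured in the same libraries and shares Col5a2 with the DESeq2 calls. It was also chosen with earlier results of these data known, so it is not independent of those calls. All 25 had negative differences, with a median of -0.54 on the log2 scale, and 13 of 25 were lower at an unadjusted p under 0.05 (2.57% of all genes tested) and none was higher (1.8% of all genes tested). In 12 of 25 both PTX libraries lay below all 3 controls (11.2% of all genes tested), and in none above (11.1% of all genes tested). Col1a2, a chain of fibrillar collagen, was at 26.5, 20.95 and 27.55 FPKM in controls and 11.74 and 19.95 after PTX. Col3a1 was at 27.29, 20.78 and 29.99 FPKM and at 8.08 and 19.73. Col5a2, the 1 gene of the list that DESeq2 called, was at 6.62, 6.49 and 6.17 FPKM and at 3.99 and 5.32, a difference of -0.48 ± 0.11 on the log2 scale (SE) with an adjusted p of 0.999 in edgeR and 0.046 in DESeq2. Lox, the enzyme that cross-links collagen, was at 8.07, 6.47 and 6.42 FPKM and at 2.59 and 4.85. Timp1, an inhibitor of matrix metalloproteinases, was at 2.11, 2.45 and 2.56 FPKM and at 1.43 and 0.92.

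Most of this distance belonged to KO PTX replicate 2. Its median over the list was -0.91 on the log2 scale from the control mean, that of KO PTX replicate 3 was -0.18, and KO control replicate 2 was also at -0.18. Without KO PTX replicate 2, 1 of the 25 genes was lower at an unadjusted p under 0.05, and without KO PTX replicate 3 there were 20. The median was -0.37, with 2 of the 25 lower at that p, once library size was a term (594 of 15082 genes, both directions together). Dcn and Sparc, abundant fibroblast products, show the split: Dcn was at 76.78 to 94.06 FPKM in controls, 49.57 in PTX replicate 2 and 85.9 in PTX replicate 3, and Sparc at 205.73 to 225.99, 146.75 and 205.94. In whole ganglia, fewer cells of a type and less RNA per cell cannot be told apart. In WT mice the list had a median difference of -0.30 after PTX.

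**Figure D4:**
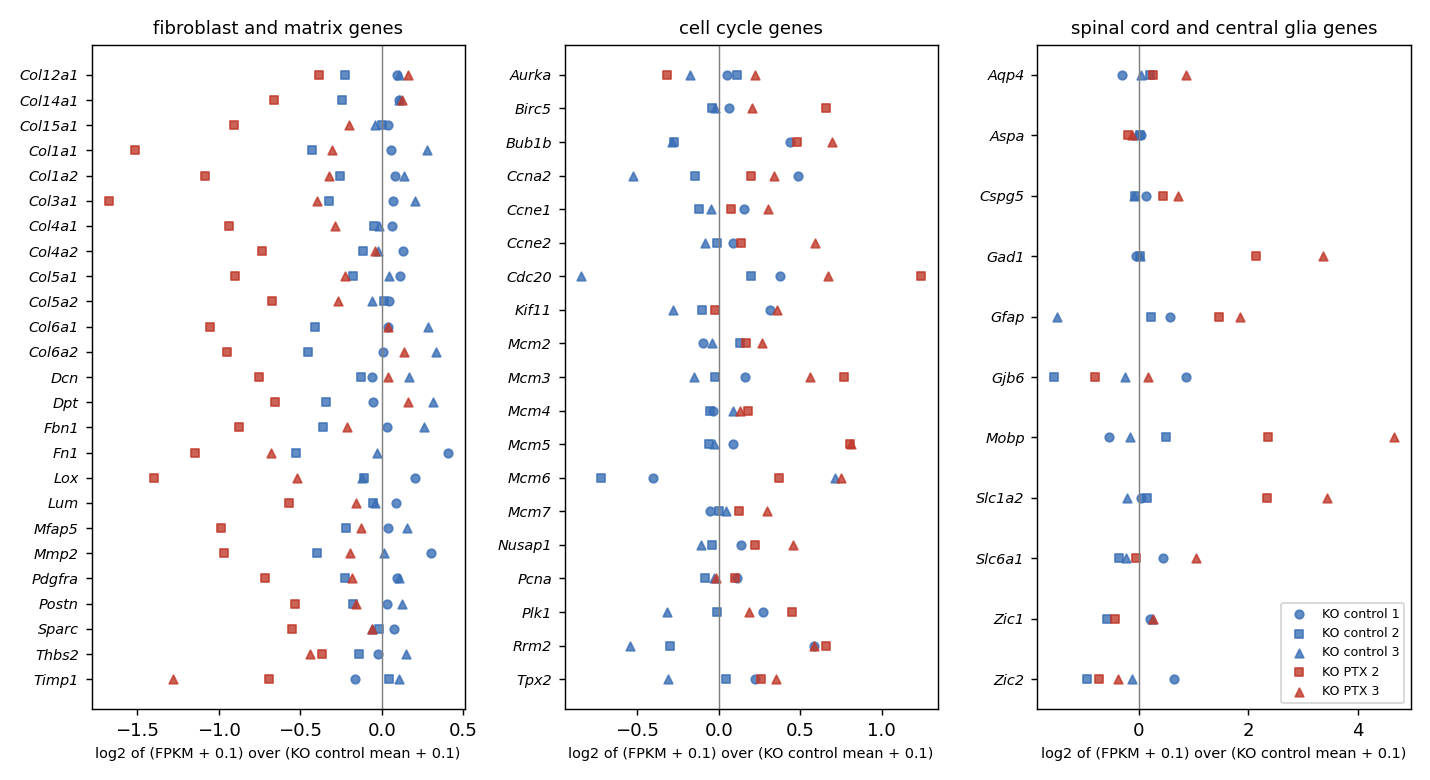
Each gene of 3 lists in the 5 KO libraries, as the log2 ratio of FPKM + 0.1 to the mean of the KO controls + 0.1 (horizontal axis); blue marks controls and red marks PTX, with the same shape for the same replicate number. Matrix genes lie lowest in KO PTX replicate 2, and cell cycle genes lie to the right in both PTX libraries. Gad1, Slc1a2 and Mobp, tested only because of their PTX values, lie highest in KO PTX replicate 3.

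Other cell types of the same library leaned with the matrix genes. The median of 18 myelinating Schwann cell genes was -0.44 in KO PTX replicate 2 and -0.08 in replicate 3, that of 22 macrophage genes was -0.37 and -0.10, and that of 20 endothelial and pericyte genes was -0.28 and 0.03. Of the 18 Schwann cell genes, 3 were lower at an unadjusted p under 0.05 (2.57% of all genes tested) and none was higher (1.8% of all genes tested). Ugt8a, which makes the galactolipids of myelin, was at 15.24, 14.08 and 13.76 FPKM in controls and 8.21 and 11.7 after PTX. Among macrophage genes 3 of 22 were lower at that p (2.57% of all genes tested), Lyz2, C1qc and Cx3cr1, and none was higher. Of the 22, 6 had positive differences. Aif1, which encodes the macrophage protein IBA1, was at 0.61 to 0.67 FPKM in controls and 1.01 and 0.93 after PTX, without overlap, with a difference of 0.66 and an unadjusted p of 0.091. Lyz2, lysozyme, was at 40.41, 30.59 and 29.7 FPKM in controls and 23.84 and 25.82 after PTX, whereas the macrophage marker Cd68 overlapped at 1.83 to 3.08 and 1.98 to 2.57. Of the 20 endothelial and pericyte genes 2 were lower (2.57% of all genes tested) and none was higher (1.8%) at that p. Their median was -0.15, and -0.00083 once library size was a term. In WT mice the macrophage list had a median difference of -0.48.

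**Figure D5:**
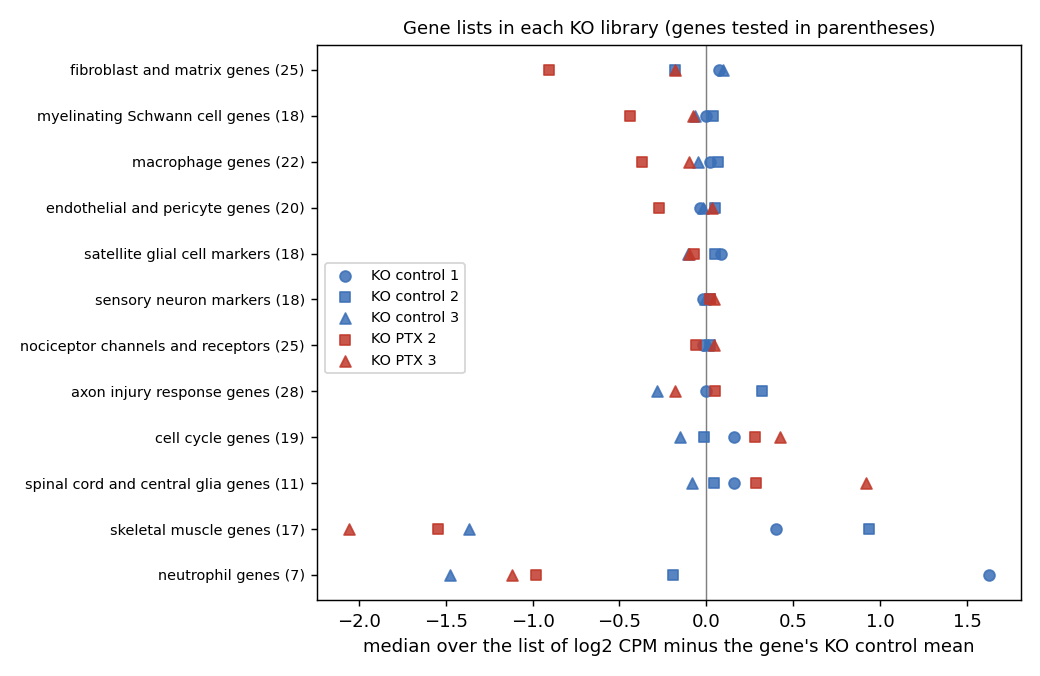
Median over each of 12 gene lists of log2 CPM (counts scaled to library size) minus the gene's KO control mean (horizontal axis), for the 3 KO control (blue) and 2 KO PTX (red) libraries. The sensory neuron and nociceptor lists lie within 0.07 of 0 in all 5 libraries. KO PTX replicate 2 stands at -0.91 for matrix genes and KO PTX replicate 3 at 0.92 for spinal cord and central glia genes. Of the 11 spinal cord and central glia genes, 3 passed the FPKM filter only through their PTX values, so this median is in part set by that choice.

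Cell cycle genes were at low levels, and most had somewhat higher values after PTX in KO mice. Of 30 listed, 19 were tested, and 18 of the 19 had positive differences, with a median of 0.37 on the log2 scale against -0.21 in WT mice. At an unadjusted p under 0.05, 2 were higher (1.8% of all genes tested) and none was lower, and in 11 of 19 both PTX libraries lay above all controls (11.1% of all genes tested). Mcm5, a subunit of the replicative helicase, was at 1.02, 0.91 and 0.93 FPKM in controls and at 1.74 and 1.75 after PTX. Bub1b, a kinase of the mitotic checkpoint, was at 1.29, 0.75 and 0.74 FPKM and at 1.33 and 1.56. Mcm3 was at 0.85 to 1.08 FPKM in controls and at 1.7 and 1.46 after PTX. Pcna, the DNA polymerase clamp and the most abundant gene of the list, overlapped between the groups at 15.25 to 17.51 and 16.02 to 17.39. In WT mice the list had a median of 0.15 in WT control replicate 1 relative to the other 2 controls. That of WT PTX replicate 3 relative to the other 2 PTX libraries was 0.40. The control difference did not follow library size. From the KO control mean, the small WT control replicate 1 was at 0.40, the larger replicate 2 at 0.36 and replicate 3 at 0.01. With library size as a term the median in KO mice was -0.07, and no gene of the list was at an unadjusted p under 0.05 in either direction.

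Some genes of spinal cord and central glia had higher values in KO PTX, most of all in replicate 3. Of 26 listed, 11 were tested. At an unadjusted p under 0.05, 5 of the 11 were higher (1.8% of all genes tested) and none was lower. But 3 of these 5, Gad1, Mobp and Slc1a2, were tested only because of their PTX values. The other 2 were Aqp4 and Cspg5. Of the 11, 4 had negative differences, among them Zic2 at -0.60, Zic1 at -0.17 and Aspa at -0.15 on the log2 scale, and Aspa, which breaks down N-acetylaspartate in oligodendrocytes, was at 5.91 to 6.32 FPKM in controls and 5.37 and 5.64 after PTX, without overlap. Slc1a2, the main glutamate transporter of astrocytes, was at 0.38, 0.42 and 0.3 FPKM in controls and at 2.26 and 4.98 after PTX. Mobp, a protein of central myelin, was at 0.07, 0.25 and 0.12 FPKM and at 1.16 and 6.11. Gad1, which makes GABA, was at 0.07, 0.08 and 0.08 FPKM and at 0.68 and 1.73. The small WT libraries held Slc1a2 at 1.9 and 1.74 FPKM, Mobp at 1.57 and 1.17 and Gad1 at 0.6 and 0.6, close to KO PTX replicate 2 and below KO PTX replicate 3. Several listed genes below the FPKM limit were near 0 in all KO controls and highest in KO PTX replicate 3. Slc32a1, the vesicular GABA transporter, was at 0 in the 3 controls and at 0.17 and 1.64 FPKM after PTX, Slc6a5, the glycine transporter of inhibitory neurons, at 0 to 0.01 and at 0 and 0.83, and Mog, of oligodendrocytes, at 0 to 0.03 and at 0.18 and 1.3. The motor neuron marker Chat was at or near 0 in all 5. Lamp5 and Slc12a5, genes of central neurons, followed at 0.08 to 0.10 and 0.47 and 2.08 FPKM for Lamp5, and 0.11 to 0.17 and 0.65 and 2.13 for Slc12a5. Among the KO libraries Gpr37l1, like Gad1 and Lamp5, was highest in PTX replicate 3 and next in PTX replicate 2. Whether these orders have anything in common was not tested, and 2 PTX libraries are too few to compare orders. With library size as a term 1 of the 11 genes was higher at an unadjusted p under 0.05 (594 of 15082 genes, both directions together).

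SGC markers differed in both directions. Of 18 genes, 2 were higher (1.8% of all genes tested) and 2 lower (2.57%) at an unadjusted p under 0.05, and the median difference was -0.05 on the log2 scale. Once library size was a term, none of the 18 was at that p in edgeR in either direction. Fabp7, the fatty acid-binding protein used to mark these cells, was at 141.42, 167.78 and 127.41 FPKM in controls and at 138.1 and 84.16 after PTX, a difference of -0.34 with an unadjusted p of 0.019. Its groups overlapped, since PTX replicate 2 lay among the controls, and under the library-size term its difference was -0.26 with an unadjusted p of 0.16. Sostdc1, an inhibitor of BMP and Wnt signalling, was at 13.39 to 15.42 FPKM and at 12.86 and 10.94. Slc1a3, the glial glutamate transporter GLAST, was at 2.07, 2.0 and 1.8 FPKM and at 2.7 and 2.93, a difference of 0.52 with an unadjusted p of 0.0082, which with library size as a term was 0.21 with an unadjusted p of 0.24. Glul, glutamine synthetase, was at 101 to 115 FPKM in controls and 104 and 109 after PTX. Gja1, connexin 43, was at 2.83 to 3.3 FPKM and at 2.7 and 3.2. Apoe, the lipid carrier, was at 816 to 931 FPKM and at 755 and 977.

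Neuronal lists had medians close to 0. Of 18 sensory neuron markers none was at an unadjusted p under 0.05 in edgeR in either direction, and the median difference was 0.04 on the log2 scale. Scn10a, the sodium channel Nav1.8 of nociceptors, was at 91.51, 101.68 and 91.61 FPKM in controls and at 91.15 and 116.22 after PTX. Calca, which encodes the neuropeptide CGRP, was at 658, 801 and 619 FPKM and at 697 and 559. Of 25 nociceptor channels and receptors, 1 was higher (1.8% of all genes tested) and 1 lower (2.57%) at that p, with a median of 0.0073. Under the library-size term 4 were higher and none lower, with a median of 0.097. In that fit 594 of 15082 genes were at that p, both directions together. Htr3a, a serotonin-gated channel, was at 38.98 to 46.08 FPKM in controls and at 56.89 and 50.64 after PTX, without overlap. Mrgprd, a receptor of nonpeptidergic nociceptors, was at 24.81, 31.21 and 39.98 FPKM and at 20.74 and 27.31, a difference of -0.50 on the log2 scale in the fit with sex, although the values of the groups overlapped. Of 51 potassium channel genes, Kcnd2, an A-type channel tested only because of its PTX values, was 1 of 51 higher (1.8% of all genes tested) and none was lower, at 0.29 to 0.43 FPKM in controls and 0.51 and 1.08 after PTX. Of 29 tubulin genes and microtubule factors, the targets and partners of the drug, 1 was higher (1.8% of all genes tested). None was lower, and the median was 0.04. The higher gene was Tppp, a tubulin-polymerizing protein of glia, at 4.94 to 5.93 FPKM and at 5.78 and 7.74.

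Neuropeptides showed 2 of 14 tested genes higher at an unadjusted p under 0.05 (1.8% of all genes tested) and none lower. The median was -0.03. Penk, the precursor of the enkephalins, was at 3.87, 2.66 and 2.82 FPKM in KO controls and at 5.99 and 6.25 after PTX, without overlap, a difference of 1.04 ± 0.28 on the log2 scale (SE) with an unadjusted p of 0.0037 and an adjusted p of 0.999 in edgeR. Penk did not separate the small libraries in WT mice, where it was at 4.26 and 3.14 FPKM in these and at 2.58 to 5.24 in the others, and with library size as a term its difference was 0.92. The second gene was Cck, one of the genes shared by the small libraries and tested only because of its PTX values, at 0.02 to 0.33 FPKM in controls and 1.1 and 1.82 after PTX.

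The axon injury program was not set apart by PTX in KO mice. Of 28 tested genes none was higher (1.8% of all genes tested) and 1, Anxa1, was lower (2.57%) at an unadjusted p under 0.05. The median difference was -0.03, against -0.73 in WT mice. From the KO control mean the list had medians of 0.53, 1.22 and -0.23 in the WT controls. The WT PTX libraries were at -0.16, 0.0045 and -0.33, so WT control replicate 3 lay among them. The KO controls themselves were spread as well. Atf3, the transcription factor that marks injured sensory neurons, was at 8.22, 19.35 and 2.09 FPKM in controls and at 8.89 and 2.67 after PTX. Sprr1a, an injury-induced protein of growing axons, was at 7.67, 27.57 and 0.09 FPKM and at 9.32 and 0.24. In both genes KO control replicate 2 was highest, and replicate 3 of either group was low. Anxa1, an anti-inflammatory annexin, was at 5.22, 3.6 and 3.46 FPKM in controls and 2.04 and 2.16 after PTX, a difference of -0.86 ± 0.21 on the log2 scale (SE) with an adjusted p of 0.999 in edgeR and 0.039 in DESeq2. In WT mice it differed by -0.73, and the test of the difference between genotypes gave an unadjusted p of 0.66.

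Many immune mediators were below the limit of 0.5 FPKM. Of 23 listed cytokines and chemokines 12 were tested. At an unadjusted p under 0.05, 2 were higher (1.8% of all genes tested) and none was lower. One was Il10, which followed the small libraries as described above and was tested only because of its PTX values. The other was Cx3cl1, the neuronal chemokine fractalkine, at 1.46, 1.95 and 1.96 FPKM in controls and at 2.46 and 5.02 after PTX, a difference of 0.91 that with library size as a term was 0.54 with an unadjusted p of 0.10. Il1b, Il6 and Tnf did not exceed 0.3 FPKM in any KO library. Of 23 interferon response genes 1 was higher (1.8% of all genes tested) and 1 lower (2.57%) at that p. Their median was -0.0017 against -0.30 in WT mice. B2m, the light chain of MHC class I, was at 203, 183 and 178 FPKM in controls and at 219.92 and 210.28 after PTX. Ifi27 was at 71.14 to 76.73 FPKM and at 70.33 and 48.37.

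Genes of muscle and blood were spread widely among libraries of the same group. Of 17 skeletal muscle genes 2 were lower at an unadjusted p under 0.05 (2.57% of all genes tested) and none was higher. The median difference was -1.63. Both lower genes had PTX means below the FPKM limit and passed through their control values. Under the library-size term the median was -0.21 and none was at that p in edgeR in either direction. Acta1, skeletal muscle actin, was at 136, 206 and 41.7 FPKM in controls and at 29.3 and 21.3 after PTX, and in WT libraries the summed level of the list ranged from 6.67 to 720 FPKM. Of 7 neutrophil genes none was at that p in edgeR, with a median of -1.01 that was 0.22 under the library-size term, and S100a9 was at 33.4, 8.43 and 3.32 FPKM in controls and 5.91 and 4.03 after PTX, with KO control replicate 1 apart. Of 8 red cell genes none was at that p either, and hemoglobin Hba-a1 was at 68.35, 16.83 and 24.98 FPKM in controls and 19.37 and 43.17 after PTX, again with KO control replicate 1 highest.

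Metabolic and stress lists had small medians, though the stress lists leaned lower. Of 36 nuclear oxidative phosphorylation genes none was at an unadjusted p under 0.05 in edgeR, with a median of -0.02. Under the library-size term their median was -0.19 and 1 was lower (594 of 15082 genes at that p, both directions together). Without that term none of the 13 mitochondrially encoded genes was at that p in edgeR either, with a median of 0.11. Of 24 cholesterol synthesis genes 1 was lower (2.57% of all genes tested) and none higher (1.8%). Of 29 genes of the integrated stress and unfolded protein responses 1 was lower (2.57% of all genes tested) and none higher. The median was -0.07, and 24 of the 29 differences were negative. In 8 both PTX libraries lay below all controls (11.2% of all genes tested) and in 2 above (11.1%). The gene lower at that p was Pdia6, a disulfide isomerase, at 27.72 to 30.73 FPKM in controls and 24.89 and 27.54 after PTX. Of 17 p53 targets, Btg2 was the 1 lower gene (2.57% of all genes tested), at 2.29 to 3.03 FPKM and at 2.18 and 1.85. Btg2 was also 1 of 2 lower genes among 15 immediate early genes, with Klf4 (2.57% of all genes tested). None was higher (1.8%). Of these 15, 14 had negative differences, with a median of -0.10, and -0.33 under the library-size term.

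Of 19 clock genes 1 was higher (1.8% of all genes tested) and 2 lower (2.57%) at an unadjusted p under 0.05. Arntl, which encodes the clock activator BMAL1 and had a PTX mean below the FPKM limit, was at 0.86, 1.06 and 0.71 FPKM in controls and at 0.48 and 0.45 after PTX, a difference of -0.84 ± 0.22 on the log2 scale (SE) with an adjusted p of 0.999 in edgeR. Nfil3, a clock output repressor, was at 3.17 to 3.5 FPKM and at 2.12 and 2.31. Per3, a period gene, was at 1.23, 1.12 and 1.8 FPKM and at 1.66 and 2.18, so that the groups overlapped. In WT mice Arntl differed by -1.07 and Per3 by 1.04 after PTX. Hour of collection is not given in the sources used here. Of 26 Hox genes 2, Hoxb8 and Hoxd4, were higher at that p (1.8% of all genes tested) and none was lower. Both were highest in KO PTX replicate 3. Under the library-size term 3 of the 26 were higher at that p in edgeR (594 of 15082 genes, both directions together). The median of the Hox genes went from 0.14 to 0.26 on the log2 scale. Hoxb8, which sets the level of the body axis, was at 2.57 to 3.57 FPKM in controls and at 3.3 and 7.32 after PTX.

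Beyond the lists, the genes with the smallest p among those without overlap included enzymes, scaffolds and receptors of different kinds. Ppia, which encodes the abundant protein-folding enzyme cyclophilin A, was at 262, 231 and 225 FPKM in KO controls and at 120 and 144 after PTX, against 189 to 288 in the 6 WT libraries. Its difference was -0.81 ± 0.16 on the log2 scale (SE) with an adjusted p of 0.84 in edgeR and 9.5e-05 in DESeq2, and with library size as a term -0.98. Ppia has many near-identical copies in the genome, so its reads may have been split among them. Hmgb2, a chromatin protein of dividing cells, was at 1.2, 1.35 and 1.14 FPKM in KO controls and at 2.8 and 2.95 after PTX, a difference of 1.19 ± 0.23 (SE), and the WT libraries were at 1.26 to 2.53. Gnpnat1, an enzyme of hexosamine synthesis, was at 1.62, 1.63 and 1.5 FPKM and at 0.82 and 0.73. Card10, a scaffold of NF-κB signalling, was at 5.16, 4.45 and 6.15 FPKM and at 3.39 and 3.66. Sh3tc2, a Schwann cell protein of the recycling endosome, was at 1.68 to 1.79 FPKM and at 1.25 and 0.96. Sat1, the enzyme that starts polyamine breakdown, was at 22.51 to 26.92 FPKM and at 21.94 and 16.49. Hrh3, a presynaptic histamine receptor, was at 0.7 to 0.83 FPKM and at 1.28 and 1.65. Agap2, a GTPase-activating protein of neurons, was at 3.17 to 4.0 FPKM and at 4.53 and 5.08, and Rasgrf1, a neuronal Ras activator, at 1.08 to 1.49 and at 1.6 and 3.02. Pcdhgb6, a clustered protocadherin, was at 2.08 to 2.7 FPKM and at 3.34 and 3.28, and Zbed5 at 1.58 to 1.87 and at 1.04 and 1.09. The predicted genes Gm10123 and Gm17494 were higher without overlap, Gm10123 at 153 to 399 FPKM and at 1109 and 695. Each of these genes had an adjusted p of 0.84 or more in edgeR. DESeq2 called Ppia, Hmgb2, Gnpnat1, Card10, Rasgrf1, Sh3tc2, Agap2 and Sat1, at an adjusted p of 9.5e-05 to 0.046. It did not call Hrh3, Pcdhgb6, Zbed5, Gm10123 or Gm17494. None of these genes was among its 8 calls with library size as a term.

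Some of the DESeq2 calls rested on single libraries or on gene copies. Klk1b22 was at 0, 0.03 and 2.9 FPKM in controls and at 0 in both PTX libraries, so 1 control carried it. Gm45062 was at 5.05 FPKM in KO control replicate 1 and at 0 in the other 4 KO libraries. Gm20431 was at 8.9 FPKM in KO PTX replicate 2 and at 0 in the other 4 KO libraries, and WT PTX replicate 3 held it at 6.14. Snrpert and Rpl10-ps5 are named as copies of other genes. Gm10036 was at 5.46, 14.71 and 6.37 FPKM in controls and 2.11 and 2.78 after PTX, Gm8355 at 13.49 to 20.3 and at 8.27 and 8.2, and Phtf1os at 0.79 to 1.12 and at 0.16 and 0.35. Ndor1 was called in 1 of its 2 rows of the table, at 2.6 to 3.55 FPKM in controls and 0.52 and 0.07 after PTX, while its other row was at 3.0 to 3.9 and 4.31 and 5.08. The values of these genes are uncertain where reads of copies or overlapping models were divided among them.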

How the data were processed

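Total RNA of DRGs was sequenced as stranded poly(A) libraries. Per the labels, reads were handled by the authors with cutadapt, FastQC, HISAT2 and StringTie against mm10 (versions not given in the sources used here). The deposited table gives estimated counts and FPKM per gene and library. The deposited counts were treated as estimated counts and rounded to whole numbers, since how they were made is not given in the sources used here. The FPKM values, which the authors normalized by transcript length and library size, were used for levels and for the filter. A gene was tested at a mean of at least 0.5 FPKM over the 5 KO libraries.

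The main test was edgeR 4.0.16 (TMM, quasi-likelihood, R 4.3.3) on all 11 libraries in 1 fit with group and labelled sex, two-sided, with Benjamini-Hochberg adjustment over 15082 genes. Differences are log2(PTX over control). DESeq2 1.42.0, limma 3.58.1, other filters, scaling and covariates, and leaving out each KO library were alternatives. Scripts were checked on simulated data. Groups without overlap were read from CPM. Fold changes rest on totals of 52735648 to 80348732 counts. Replicate numbers follow the sample descriptions, which number the KO PTX libraries 2 and 3, while their titles number them 1 and 2. Nothing states that libraries are separate animals.

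The comparison, its genes and the 29 gene lists were chosen with earlier results of these data known. Genes named were taken from a rule that holds those past an adjusted p of 0.05 in edgeR or DESeq2, the 10 of smallest p per direction without overlap, the receptor and its partners, all phosphodiesterases, defining markers and the 3 members of smallest p per direction of each list. Chosen after their values were seen were the genes shared by the small libraries, the neighbours of Pde10a, the genes lost in single libraries, the gene copies outside this rule, the listed genes below the FPKM limit, and Col3a1, Lox, Timp1, Dcn, Sparc, Pcna, Glul, Gja1, Apoe and Sprr1a. No genome sequence was used here beyond RefSeq promoter windows, matched by symbol for Pde10a. One marker gene is not reported here.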

Additional observations from a re-analysis of the deposited data

Results flagged for a closer look

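The effect of PTX on Pde10a differed between genotypes by the test of the difference itself, at -3.82 on the log2 scale in KO minus WT. It was lower after PTX in 2 of 2 KO libraries and higher in 2 of 3 WT libraries than in every control library of the same genotype. The groups of 2 and 3 libraries were too small to look for single outlying libraries.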

How the results depend on the processing

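The count of genes past an adjusted p of 0.05 was 1 in edgeR and also 1 with other size factors, either other filter, no sex term, limma-voom or limma on FPKM. It was 4 on the KO libraries alone, 28 with DESeq2, 98 with DESeq2 on the KO libraries alone, 2 with library size as a term and 8 with that term in DESeq2. The cause was not tested. In edgeR the second gene called under the library-size term was Plekhm3, at 3.21 on the log2 scale. Its KO values were 9.53, 8.84 and 9.12 FPKM in controls and 9.39 and 8.68 after PTX. The term thus gave KO mice a difference that their values did not show. Leaving out 1 KO library gave 1 to 7 calls. Without KO control replicate 2 there were 7, without KO PTX replicate 2 there were 7 and without KO PTX replicate 3 there were 3, Pde10a among them each time. Pde10a was called under all 19 alternatives, with log2 values of -3.57 to -1.48 and adjusted p of 1.5e-109 to 0.0039.

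Whether the numbers pair the libraries cannot be told from 2 pairs. Deviations from the group mean correlated at 0.044 and 0.091 between libraries of the same number. With 2 KO PTX libraries these deviations mirror each other, so the swapped pairs gave -0.044 and -0.091. The replicate block by the numbers of the descriptions gave 1 call and that by the title numbers, with sex, gave 2.

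Directions turned in a few named genes. Klk1b22 was at 6.72 and Gm20431 at -10.0 on the log2 scale with library size as a term. Without KO PTX replicate 2, the value of Gm20431 was -1.60 and without KO PTX replicate 3 it was 23.6, since 1 library carried it. Gm45062, also carried by 1 KO library, ranged from -13.1 to 0.0063 over the libraries left out, the latter without KO control replicate 1. Kcnj10 ranged from -0.00014 without KO PTX replicate 3 to 0.26 without KO PTX replicate 2. For the difference between genotypes, Anxa1 ranged from -0.44 to 0.21 over the libraries left out and was 0.045 with library size as a term and 0.046 with that term in DESeq2. Col5a2 ranged from -0.45 to 0.0092, and Gm20431 from -13.1 to 12.1, with -32.0 and -13.8 under the term in edgeR and DESeq2. With 2 PTX libraries, 1 library can set a value, and the library-size term rests on 1 library of each WT group.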

Other observations

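A group of gene copies, chosen after their values were seen, set KO control replicate 2 apart. Gm15459 had 385, 116 and 388 FPKM under control treatment and 113 and 102 after PTX, all in KO mice. Without KO control replicate 2 this gene, with Gm9008, Rpl3-ps1, 2900052N01Rik, Gm8355 and Gm45062, was past an adjusted p of 0.05 in edgeR beside Pde10a.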
